A study of Homo sapiens with 9 samples.

Results

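The genes described here lie on band 1p36, the outermost part of the short arm of chromosome 1. They are 59 protein-coding genes chosen by name for their place on the band, of 19706 usable gene symbols in the deposited table, and every one of the 59 was in the table. In position they run from DVL1 to CAPZB, over 18.2 Mb (chr1:1335276-19485539, GRCh38, GENCODE release 29). RNA with poly(A) tails was sequenced from untreated cells of 3 human neuroblastoma lines, with 3 libraries per line. Kelly and BE(2)C carry an amplified MYCN gene, and SH-SY5Y does not. BE(2)C and SH-SY5Y are clonal sublines, so each stands for 1 clone, and because SH-SY5Y is the single line without amplification, MYCN status cannot be told apart from which line it is. Whether the 3 libraries of a line stem from separate cultures is not in the labels, and p-values rest on the spread among them, which may be technical. In RNA from whole cultures, fewer cells of a kind and less RNA per cell cannot be told apart.

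Loss of 1p36 is one of the recurrent chromosome changes of neuroblastoma, and in tumours it is found together with MYCN amplification. The band has been searched for tumour suppressor genes for that reason, and CHD5, CAMTA1, CASZ1, KIF1B, PRDM2 and MIB2 are among those discussed. A loss of 1 copy leaves the other copy in place, and the RNA of a gene need not follow its copy number. Copy number was not measured here.

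Levels are given as scaled TPM, a share of all gene transcripts per length of transcript, adjusted between libraries by a trimmed mean. Tests are limma's, run over all 13077 genes that had 1 scaled TPM or more in at least 3 libraries, on log2(scaled TPM + 1). A gene was called when its two-sided p, adjusted by the Benjamini-Hochberg method over all genes tested, was under 0.05. Values after ± are the SD over 3 libraries for a level and the SE for a log2 fold change, a scale that makes changes of low genes look smaller. Where a gene is said to be higher by a value, that value is on the log2 scale. Of the 59 genes, 57 passed the filter. DHRS3 and PADI2 did not, and both were listed at 0 in all Kelly and BE(2)C libraries. Their SH-SY5Y values were 0.289, 0.215 and 0.176 for DHRS3, a retinal reductase, and 0.458, 0.279 and 0.259 for PADI2, which converts arginine to citrulline in proteins.

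The libraries fitted their labels. MYCN averaged 5970 ± 77.5 scaled TPM in Kelly and 6051 ± 1088 in BE(2)C, against 27.2 ± 1.01 in SH-SY5Y. Of 8 markers of noradrenergic neuroblastoma, all 8 averaged 1 or more in both amplified lines, against 7 in SH-SY5Y, and their summed level ran from 3608 to 5892 scaled TPM over the 9 libraries. The summed levels of leukocyte, epithelial, fibroblast, and Schwann or glial markers were at most 13.3, 1.94, 40.7 and 6.45. CD3E, KRT5 and KRT14 were listed at 0 in all 9 libraries. ERCC spike-in RNA, synthetic transcripts added to each sample, took 83.7% to 90.6% of each library. For testing, the spike-ins were centred on their median in each library. They set Kelly apart: limma called 49 of 61 abundant spike-ins in Kelly against SH-SY5Y, with shifts of up to 1.38 on the log2 scale, and 54 in Kelly against BE(2)C, with shifts of up to 1.20. Between BE(2)C and SH-SY5Y the largest spike-in shift was 0.175.

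Promoter sequence was searched for CACGTG, an E-box that proteins of the MYC family bind and that is its own reverse complement. The RefSeq table on GRCh38.p14 gives 80 promoter windows for 52 of the 59 genes, from 250 bases before to 50 bases after a start; CASZ1, CHD5, DFFB, PEX14, RERE, SKI and SPSB1 are not in it. The letters CACGTG were in 7 of the 80 windows (8.75%), against 7.26% of all 35116 windows in the table. They were those of UBE4B, DFFA, AGTRAP, CLCN6, KAZN, DNAJC16 and NECAP2. A match is a description of the letters, and no binding was measured. The 3 windows below belong to genes whose levels differ widely between the lines: UBE4B, a ubiquitin chain factor (chr1:10032708-10033007), KAZN, a junction-associated protein (chr1:14923904-14924203, 1 of its 4 starts), and DNAJC16, a co-chaperone (chr1:15526598-15526897). All are on the plus strand, written 5′ to 3′, with the motif in capitals.
UBE4B: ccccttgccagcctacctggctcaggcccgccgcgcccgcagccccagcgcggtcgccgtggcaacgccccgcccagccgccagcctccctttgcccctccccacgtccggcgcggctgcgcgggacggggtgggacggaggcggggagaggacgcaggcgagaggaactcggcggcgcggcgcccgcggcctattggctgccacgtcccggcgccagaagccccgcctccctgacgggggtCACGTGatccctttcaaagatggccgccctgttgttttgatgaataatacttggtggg
KAZN: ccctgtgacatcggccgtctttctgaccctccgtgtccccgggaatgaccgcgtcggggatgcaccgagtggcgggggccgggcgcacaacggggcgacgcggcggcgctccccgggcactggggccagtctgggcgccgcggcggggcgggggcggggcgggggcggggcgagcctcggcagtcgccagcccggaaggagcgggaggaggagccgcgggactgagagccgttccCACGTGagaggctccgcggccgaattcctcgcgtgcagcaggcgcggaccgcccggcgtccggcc
DNAJC16: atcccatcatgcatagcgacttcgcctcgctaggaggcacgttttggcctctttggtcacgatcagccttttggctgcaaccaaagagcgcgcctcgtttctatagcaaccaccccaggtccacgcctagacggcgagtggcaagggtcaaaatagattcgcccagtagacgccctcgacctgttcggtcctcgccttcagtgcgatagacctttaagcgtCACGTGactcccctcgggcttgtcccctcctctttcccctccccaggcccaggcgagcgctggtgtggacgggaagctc
UBE4B and KAZN had their highest mean in Kelly and their lowest in BE(2)C, and DNAJC16 had its highest in SH-SY5Y.

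Most of the 1p36 genes were called lower in BE(2)C, while in Kelly the calls against SH-SY5Y were near the background in both directions. In BE(2)C against SH-SY5Y, 33 of the 57 tested genes were called lower and 8 higher, where 30.7% of all tested genes were called lower and 28.6% higher. Their median log2 fold change was -0.61, against -0.04 over all tested genes. In Kelly against SH-SY5Y, 14 were called lower and 18 higher, close to the 27.2% and 28.1% of all tested genes, and the median was 0.08 against -0.0043. Kelly set against BE(2)C, both with amplified MYCN, gave 33 of the 57 called higher and 2 lower, where 27.9% and 24.6% of all tested genes were called, and a median of 0.68 against 0.02. Each line stands in 2 of the 3 comparisons, so these share libraries. Counting only calls of at least 2-fold, 18 genes were lower and 3 higher in BE(2)C against SH-SY5Y, where 16.6% and 12.0% of all tested genes were. In Kelly against SH-SY5Y, 6 were lower by that much and 5 higher, beside 13.4% and 12.1% of all tested genes. In Kelly against BE(2)C, 15 were higher and 1 lower, beside 12.8% and 9.54%. Of the 57 genes, 11 were called in no comparison: AGTRAP, DFFB, DNAJC11, GNB1, ICMT, MIB2, NECAP2, PARK7, PRDM2, SPEN and TARDBP. The share of all tested genes called in no comparison was not counted, so 11 cannot be read as few or many. Some of them were called in alternative runs, ICMT and AGTRAP each in 6 of 18 in Kelly against SH-SY5Y.

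The same order is seen library by library. Relative to the SH-SY5Y mean of each gene, the median of the 57 genes was 0.11, 0.06 and 0.02 on the log2 scale in the Kelly libraries, and -0.59, -0.54 and -0.53 in the BE(2)C libraries. BE(2)C had the lowest mean of the 3 lines for 40 of the 57 genes (70.2%), against 35.2% of all tested genes, and the highest mean for 3. Kelly had the highest mean for 31 (54.4%), against 31.4% of all tested genes. The 3 genes highest in BE(2)C were AURKAIP1, SSU72 and TARDBP.

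The direction of the balance in Kelly depended on the scaling, and that in BE(2)C did not over the scalings run. With library totals only, without the trimmed-mean factor, 3 genes were called higher and 46 lower in BE(2)C against SH-SY5Y, and 13 higher and 18 lower in Kelly against SH-SY5Y. On values as deposited, with spike-ins in the total, the calls were 3 and 46 in BE(2)C and 4 and 37 in Kelly. The shares of all tested genes called under these scalings were not counted, so these counts stand without a background. The median of all tested genes moved as well: against SH-SY5Y it stood at -0.44 in BE(2)C with library totals only and at -0.43 in Kelly on values as deposited, where the trimmed-mean scaling gave -0.04 in BE(2)C and -0.0043 in Kelly. Counted against the median of all tested genes, 43 to 47 of the 57 genes lay below it in BE(2)C against SH-SY5Y over the alternatives that kept all 57, and 23 to 33 did in Kelly against SH-SY5Y. In Kelly against BE(2)C, 45 to 48 lay above it.

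**Figure D1:**
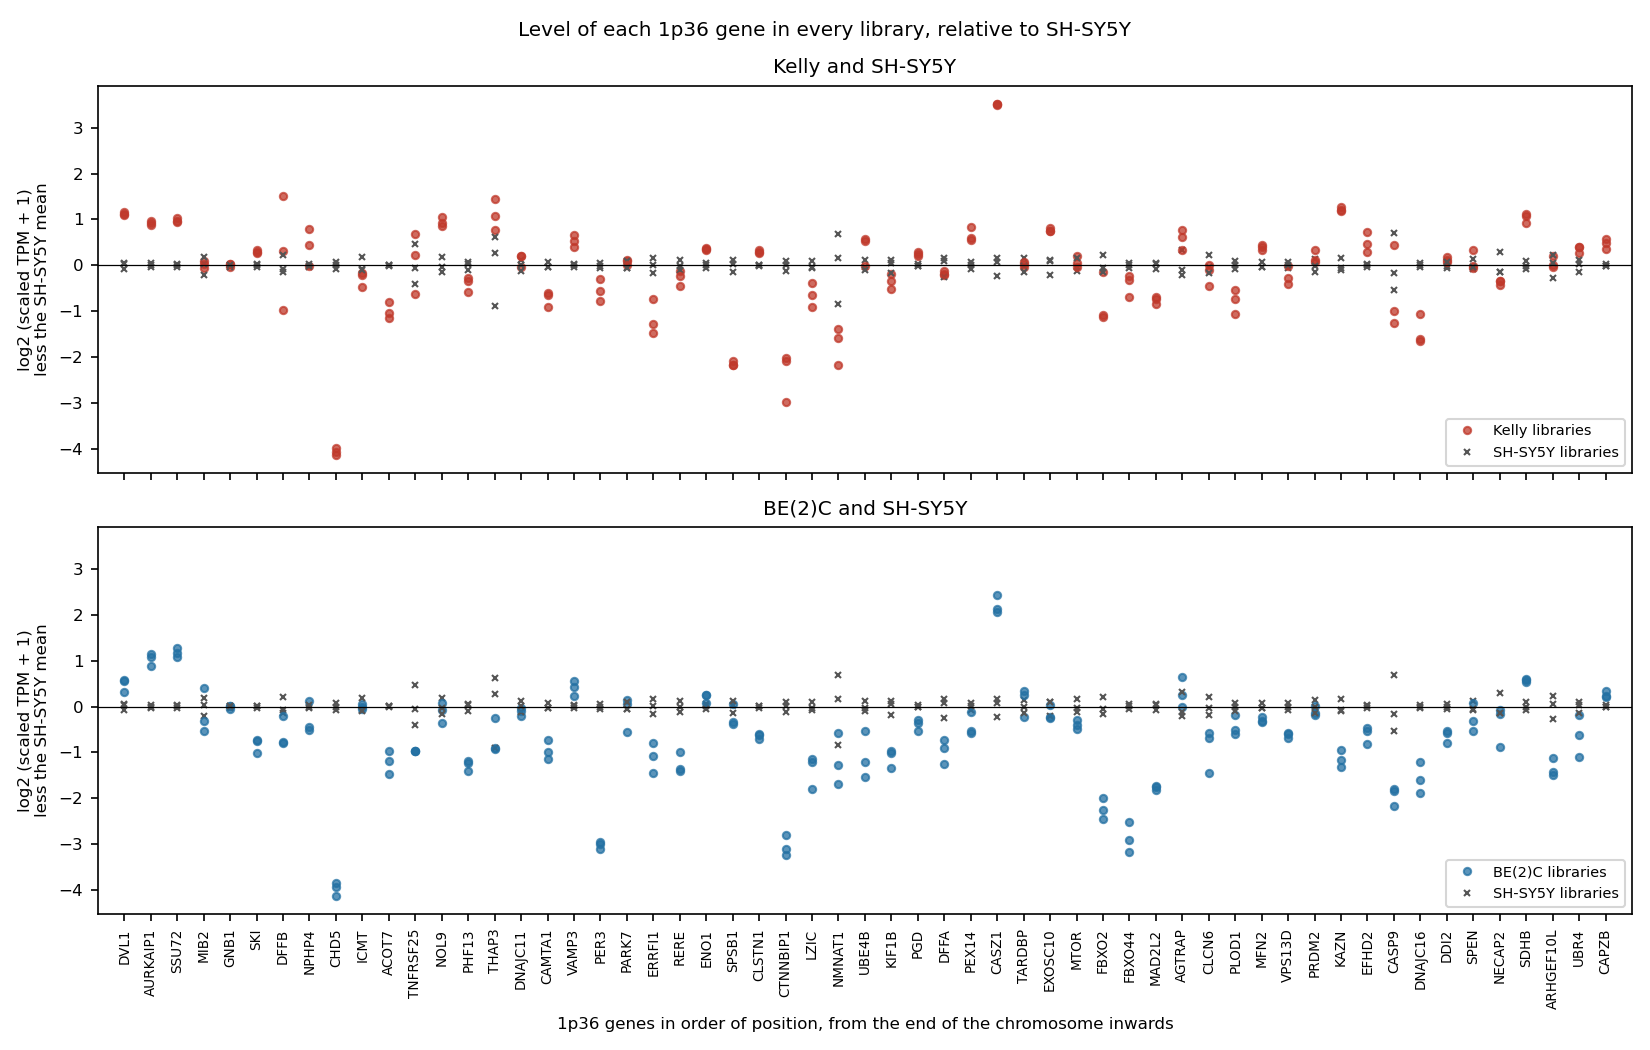
Level of each of the 57 tested 1p36 genes in every library, as log2(scaled TPM + 1) less the mean of the SH-SY5Y libraries, with the genes in order of position and the end of the chromosome at the left. Circles are Kelly libraries (upper panel) or BE(2)C libraries (lower panel) and crosses are SH-SY5Y libraries; most Kelly genes lie around 0 (median fold change 0.08) and most BE(2)C genes lie below 0 (median -0.61).

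Other genes of the same stretch, which were not chosen for any value, gave a like picture. The table holds 162 further genes between DVL1 and CAPZB, of which 90 passed the filter. In BE(2)C against SH-SY5Y, 48 of the 90 were called lower and 9 higher (median -0.53), beside 30.7% and 28.6% of all tested genes. In Kelly against SH-SY5Y, 31 were called lower and 27 higher (median 0.02), beside 27.2% and 28.1%. In Kelly against BE(2)C, 44 were called higher and 6 lower (median 0.54), beside 27.9% and 24.6%.

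The low levels in BE(2)C were not limited to the stretch from DVL1 to CAPZB. The rest of the short arm is taken here as all of it past CAPZB, including any part still on band 1p36. There 260 of 560 tested genes were called lower in BE(2)C than in SH-SY5Y and 88 higher, with a median of -0.40. On the long arm 230 of 578 were called lower and 110 higher, with a median of -0.22, and on all other chromosomes 3422 of 11661 were called lower and 3507 higher, with a median of 0.0011. The shares called lower were thus 57.9% of the listed 1p36 genes, 53.3% of their neighbours, 46.4% of the rest of the short arm, 39.8% of the long arm and 29.3% of other chromosomes. The 17 tested genes between the end of the chromosome and DVL1 are in none of these groups. Of them 5 were called lower (29.4%) and 5 higher, with a median of -0.25, so their share called lower was near that of other chromosomes. The rest of the short arm was uneven: 53.3% were called lower from 20 to 95 Mb (median -0.54) and 19.6% from 95 to 120 Mb (median 0.29). Both blocks were drawn after the values had been seen. No test of the difference between these groups of genes was made, and they serve as a description.

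**Figure D2:**
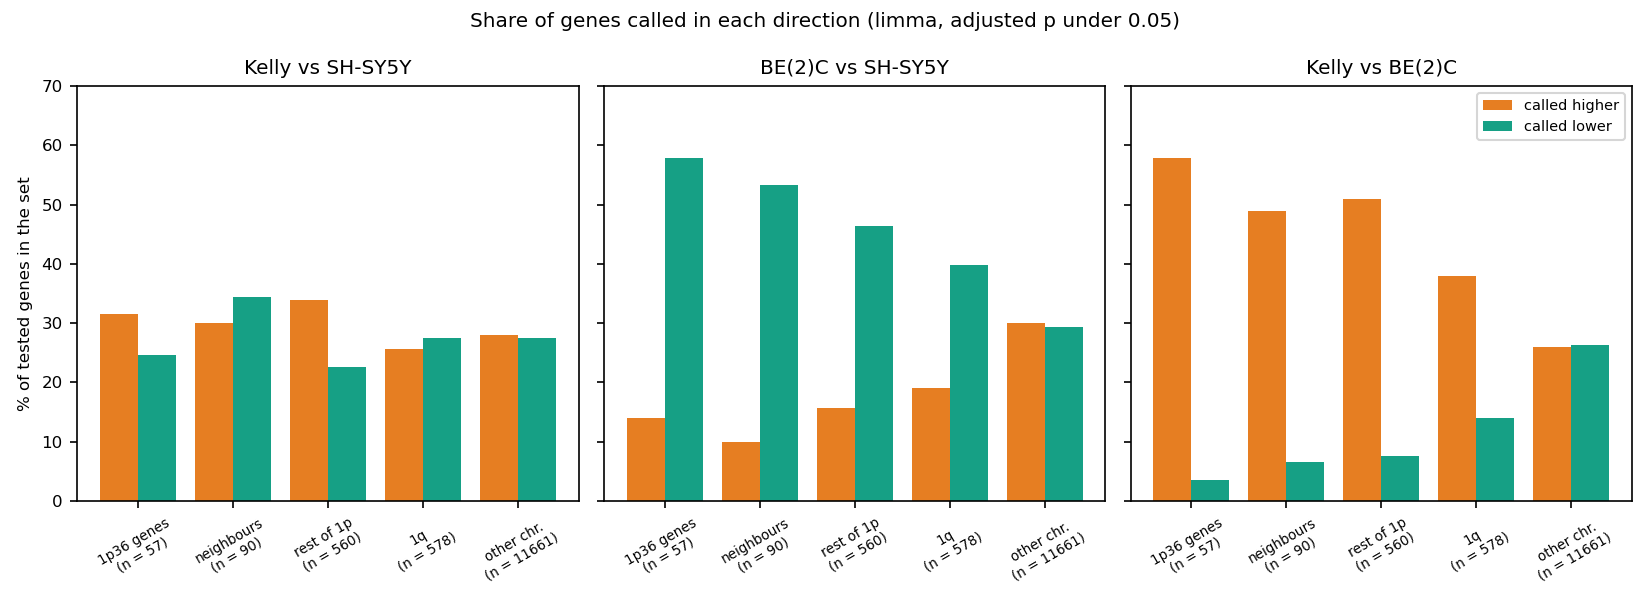
Share of tested genes called higher (orange) and lower (green) by limma in each comparison, for the listed 1p36 genes, their neighbours between DVL1 and CAPZB, the rest of the short arm past CAPZB (1p), the long arm (1q) and all other chromosomes. Genes between the end of the chromosome and DVL1 are not shown. In BE(2)C against SH-SY5Y the green bars run from 57.9% at 1p36 to 29.3% on other chromosomes, while in Kelly against SH-SY5Y the bars of the listed genes stand at 31.6% higher and 24.6% lower.

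Along the band, calls of lower level in BE(2)C were fewest among the outermost listed genes. Of all tested genes, 30.7% were called lower in BE(2)C against SH-SY5Y and 28.6% higher. No test of position along the band was made, and the outermost window holds only 7 listed genes. In the first 5 Mb of the chromosome, 7 listed genes were tested, and in BE(2)C against SH-SY5Y 3 were called higher (DVL1, AURKAIP1 and SSU72) and 1 lower (SKI), with a median of -0.01. From 5 to 10 Mb, 12 of 21 were called lower and 2 higher, with a median of -0.95. From 10 to 15 Mb it was 14 of 19 lower and 1 higher, with a median of -0.42, and from 15 to 20 Mb 6 of 10 lower and 2 higher, with a median of -0.62. Over all tested genes of the first 5 Mb, listed or not, 25 of 58 were called lower and 13 higher, with a median of -0.51, more of them lower than higher, unlike the 7 listed genes.

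**Figure D3:**
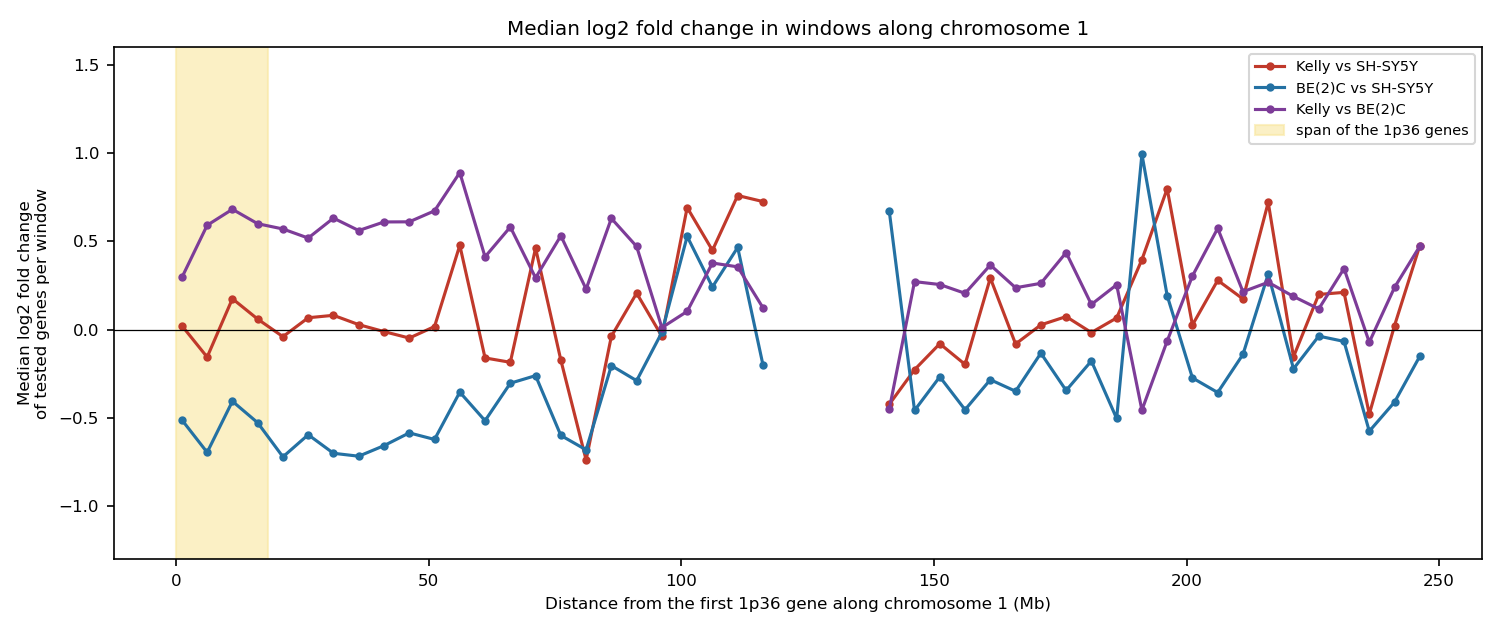
Median log2 fold change of all tested genes in windows of 5 Mb along chromosome 1 (windows with at least 5 tested genes), plotted by distance from the first listed 1p36 gene in Mb, with 1 line per comparison and the span of the 1p36 genes shaded. The line of BE(2)C against SH-SY5Y lies between -0.41 and -0.70 in the first 4 windows, which hold the 1p36 genes, and that of Kelly against SH-SY5Y between -0.16 and 0.17.

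The candidate suppressor genes did not move as a group. CHD5 encodes a chromatin remodeller of neurons, and it showed the largest change of the list. It had 0.261, 0.332 and 0.408 scaled TPM in the Kelly libraries and 0.260, 0.542 and 0.463 in the BE(2)C libraries, against 21.2, 22.3 and 20.1 in SH-SY5Y (chr1:6101793-6180123, minus strand). All 6 libraries of the amplified lines lay far below the 3 SH-SY5Y libraries, with log2 fold changes of -4.06 ± 0.16 in Kelly (limma, adjusted p = 8.08e-08) and -3.97 ± 0.16 in BE(2)C (adjusted p = 8.59e-08). Kelly and BE(2)C did not differ beyond their spread (-0.09 ± 0.16, 95% interval -0.44 to 0.27).

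CASZ1, a zinc finger transcription factor of neural and heart development, ran the other way. It stood at 36.5, 36.4 and 35.5 scaled TPM in Kelly and 12.5, 13.1 and 16.4 in BE(2)C, against 2.42, 2.65 and 1.77 in SH-SY5Y, with no overlap between lines. The log2 fold change was 3.51 ± 0.16 in Kelly against SH-SY5Y (limma, adjusted p = 2.16e-07), 2.20 ± 0.16 in BE(2)C against SH-SY5Y (adjusted p = 3.65e-06) and 1.31 ± 0.16 in Kelly against BE(2)C (adjusted p = 1.35e-04). A gene on the other strand covers 32.3% of its exon bases. The sources used here do not say that strand was used in counting, and without it reads of both cannot be told apart, so its level is uncertain. Of the 59 listed genes, 26 share exon bases with a gene on the other strand, 6 of them at least 20%.

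CAMTA1, a calmodulin-binding transcription activator, had 72.9, 58.6 and 70.8 scaled TPM in Kelly and 66.7, 50.03 and 55.8 in BE(2)C, against 108, 109 and 117 in SH-SY5Y. It was lower in Kelly (-0.72 ± 0.12; limma, adjusted p = 7.31e-04) and in BE(2)C (-0.95 ± 0.12; adjusted p = 1.09e-04). KIF1B, a motor protein that carries mitochondria and vesicle precursors along microtubules, stood at 66.6, 52.7 and 59.5 in Kelly and 38.0, 29.2 and 37.0 in BE(2)C, against 78.3, 82.6 and 66.9 in SH-SY5Y. It was called lower in BE(2)C (-1.11 ± 0.13; adjusted p = 8.21e-05), and in Kelly it missed the threshold (-0.34 ± 0.13; adjusted p = 0.0520), which it passed in 8 of 18 alternatives, among them library totals only (-0.48, adjusted p = 0.0312) and values as deposited (-0.96, adjusted p = 1.39e-04). PRDM2, a histone methyltransferase that binds the retinoblastoma protein, averaged 43.9 ± 4.19 in Kelly and 36.1 ± 2.51 in BE(2)C, against 38.8 ± 3.93 in SH-SY5Y, and none of its comparisons passed. MIB2, a ubiquitin ligase acting on Notch ligands, was near the filter in every line, at 1.51 ± 0.132 in Kelly and 1.32 ± 0.820 in BE(2)C, against 1.49 ± 0.342 in SH-SY5Y.

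**Figure D4:**
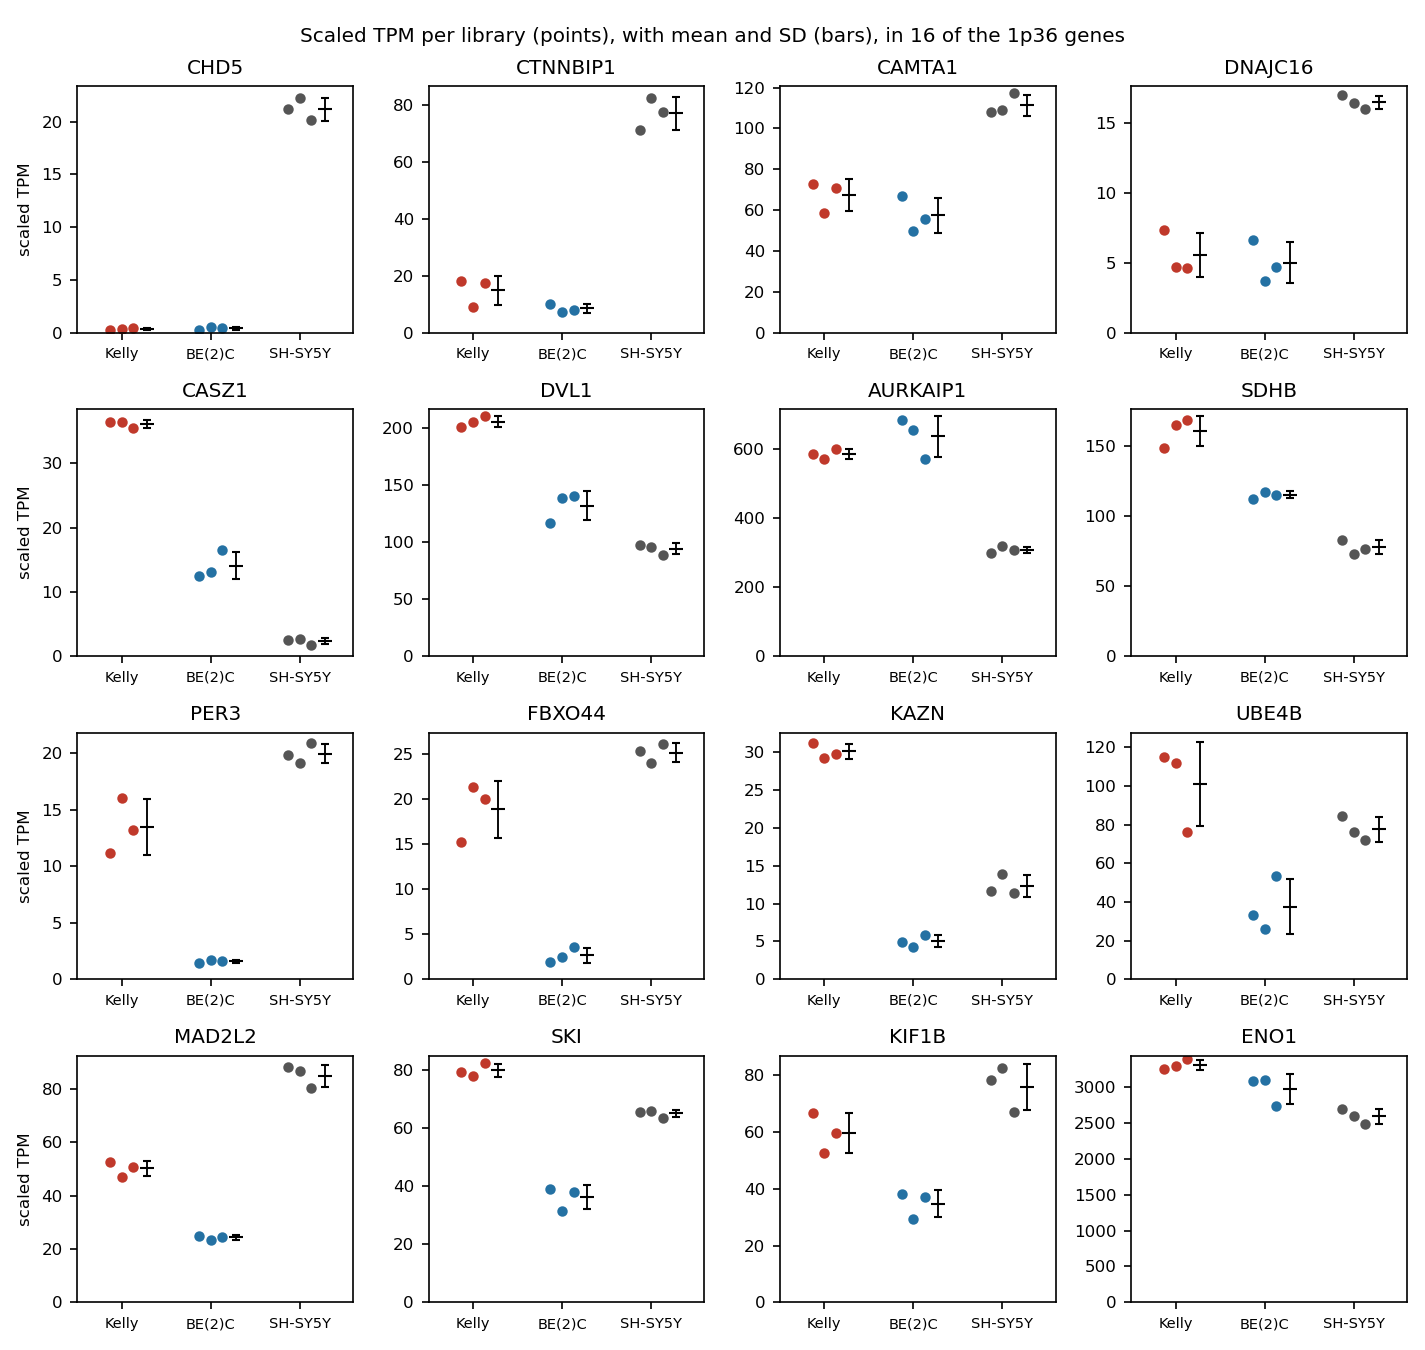
Scaled TPM in each library (points) with the mean and SD of 3 libraries (black bars) for 16 of the 1p36 genes, each panel with its own axis from 0 and the lines in the order Kelly, BE(2)C, SH-SY5Y. CHD5, CTNNBIP1 and DNAJC16 are low in Kelly and BE(2)C, CASZ1 is lowest in SH-SY5Y, and PER3, FBXO44, KAZN and SKI are lowest in BE(2)C.

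Among the other transcription and chromatin factors, 4 of 6 were called lower in BE(2)C than in SH-SY5Y and 5 of 6 higher in Kelly than in BE(2)C, where 30.7% and 27.9% of all tested genes were. PER3, a component of the circadian clock, had 11.2, 16.03 and 13.2 scaled TPM in Kelly and 1.42, 1.70 and 1.63 in BE(2)C, against 19.8, 19.1 and 20.8 in SH-SY5Y. The BE(2)C libraries lay below all others, with a log2 fold change of -3.02 ± 0.17 against SH-SY5Y (limma, adjusted p = 5.22e-07), and Kelly was 2.47 ± 0.17 above BE(2)C (adjusted p = 3.08e-06). Its lower level in Kelly than in SH-SY5Y (-0.55 ± 0.17; adjusted p = 0.0194) was not called without Kelly replicate 1 (adjusted p = 0.0594), SH-SY5Y replicate 1 (0.0538) or SH-SY5Y replicate 3 (0.0656).

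SKI, a repressor of TGF-beta signalling, stood at 79.3, 77.9 and 82.2 in Kelly and 39.1, 31.5 and 37.9 in BE(2)C, against 65.5, 65.8 and 63.5 in SH-SY5Y. It was lower in BE(2)C than in SH-SY5Y with a log2 fold change of -0.83 ± 0.09 (limma, adjusted p = 3.90e-05), and its higher level in Kelly than in SH-SY5Y (0.29 ± 0.09; adjusted p = 0.0197) turned to -0.38 on values as deposited (adjusted p = 0.0223) and was not called in 5 more of 18 alternatives, among them those without Kelly replicate 3 and without SH-SY5Y replicate 3 (adjusted p = 0.0602 and 0.0606). PHF13, a reader of histone methylation, and RERE, a nuclear receptor corepressor with a long repeat of arginine and glutamate, were also lower in BE(2)C, with log2 fold changes of -1.27 ± 0.11 for PHF13 and -1.26 ± 0.13 for RERE. THAP3, a zinc finger protein, had 52.4, 32.8 and 40.3 in Kelly and 9.44, 15.6 and 9.31 in BE(2)C, against 9.58, 29.3 and 22.7 in SH-SY5Y. Its higher level in Kelly than in SH-SY5Y (1.10 ± 0.38; adjusted p = 0.0329) was not called in 7 of 18 alternatives, and 34.8% of the exon bases of THAP3 are shared with DNAJC11 on the other strand. SPEN, a corepressor that also acts in X inactivation, did not pass in any comparison.

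Of 4 RNA processing genes, 3 were called higher in Kelly than in SH-SY5Y, where 28.1% of all tested genes were, and 1 higher in BE(2)C, near the 28.6% of all tested genes. SSU72, a phosphatase of the tail of RNA polymerase II, had 412, 422 and 442 scaled TPM in Kelly and 455, 522 and 479 in BE(2)C, against 216, 219 and 208 in SH-SY5Y. It was higher in both, by 0.99 ± 0.06 in Kelly (limma, adjusted p = 1.57e-06), a call that ended on values as deposited, and by 1.17 ± 0.06 in BE(2)C (adjusted p = 4.56e-07). NOL9, a kinase of ribosomal RNA processing, and EXOSC10, a nuclease of the nuclear exosome, were higher in Kelly than in the other lines. NOL9 averaged 53.0 ± 3.99 in Kelly and 24.8 ± 3.87 in BE(2)C, against 27.1 ± 3.499 in SH-SY5Y, and EXOSC10 176 ± 4.68 in Kelly and 93.0 ± 11.2 in BE(2)C, against 104 ± 12.8. in SH-SY5Y Both Kelly calls against SH-SY5Y ended on values as deposited, and genes on the other strand cover 39.3% of the exon bases of EXOSC10. TARDBP, the RNA-binding protein TDP-43, averaged 97.0 ± 3.84 in Kelly and 106 ± 20.6 in BE(2)C, against 95.9 ± 9.89 in SH-SY5Y, and its difference from SH-SY5Y had 95% intervals of -0.29 to 0.34 in Kelly and -0.19 to 0.44 in BE(2)C.

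Of the 4 apoptosis genes, DFFA, CASP9 and TNFRSF25 were called lower in BE(2)C than in SH-SY5Y and higher in Kelly than in BE(2)C. Of all tested genes 30.7% and 27.9% were, and of the listed 1p36 genes 57.9% in each. In Kelly against SH-SY5Y limma called 0 of the 4, and 0 of the 4 had an unadjusted p under 0.05. DFFA, the inhibitor of the nuclease that cuts DNA in dying cells, had 72.9, 78.1 and 74.6 scaled TPM in Kelly and 51.0, 35.4 and 45.3 in BE(2)C, against 95.3, 71.6 and 90.3 in SH-SY5Y, and was lower in BE(2)C with a log2 fold change of -0.96 ± 0.14 (limma, adjusted p = 3.64e-04). CASP9, the caspase started by the apoptosome, was low in all lines, at 6.43, 1.73 and 1.26 in Kelly and 0.561, 0.527 and 0.214 in BE(2)C, against 3.87, 2.75 and 7.81 in SH-SY5Y. Its level in BE(2)C was below every library of the other lines (-1.93 ± 0.46; adjusted p = 0.00534). TNFRSF25, a death receptor, was at 0.265, 2.13 and 1.28 in Kelly, at 2.62e-14, 0 and 0 in BE(2)C and at 1.69, 0.870 and 0.461 in SH-SY5Y. Its BE(2)C call against SH-SY5Y ended in 7 of the 17 alternatives that tested it. In Kelly against BE(2)C the call of TNFRSF25 ended in 6 of 17 and that of CASP9 in 7 of 17. DFFB, the nuclease itself, varied from 0.145 to 5.36 among the Kelly libraries and was not called in any comparison.

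Of 8 signalling genes, 4 were called lower and 1 higher in Kelly against SH-SY5Y, beside 27.2% and 28.1% of all tested genes, and 4 lower and 1 higher in BE(2)C against SH-SY5Y, beside 30.7% and 28.6%. CTNNBIP1, LZIC and ERRFI1 were called lower in both, SPSB1 in Kelly and MTOR in BE(2)C. CTNNBIP1, an inhibitor that keeps beta-catenin from TCF factors in Wnt signalling, had 18.3, 8.88 and 17.4 scaled TPM in Kelly and 10.1, 7.24 and 8.13 in BE(2)C, against 71.0, 82.5 and 77.6 in SH-SY5Y. The highest library of the amplified lines was below the lowest of SH-SY5Y, with log2 fold changes of -2.36 ± 0.25 in Kelly (limma, adjusted p = 3.81e-05) and -3.05 ± 0.25 in BE(2)C (adjusted p = 6.13e-06). The gene next to it, LZIC, whose product carries a domain related to that inhibitor, was lower too, at 43.6, 52.2 and 36.4 in Kelly and 30.5, 28.98 and 19.2 in BE(2)C, against 73.7, 67.0 and 65.6 in SH-SY5Y (-0.64 ± 0.18 in Kelly and -1.38 ± 0.18 in BE(2)C). The Kelly call of LZIC ended without Kelly replicate 3 (adjusted p = 0.0540) and without SH-SY5Y replicate 1 (0.0503). DVL1, which carries the Wnt signal from its receptor, went the other way: it had 201, 205 and 210.3 in Kelly and 117, 139 and 140.02 in BE(2)C, against 97.7, 95.6 and 88.6 in SH-SY5Y. It was higher in Kelly by 1.12 ± 0.08 (limma, adjusted p = 3.37e-06) and in BE(2)C by 0.48 ± 0.08 (adjusted p = 6.68e-04), the second of which did not pass with library totals only (0.02, adjusted p = 0.817) or on values as deposited (-0.08, adjusted p = 0.546).

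ERRFI1, a feedback inhibitor of the EGF receptor, had 10.6, 5.96 and 6.95 scaled TPM in Kelly and 6.16, 10.2 and 8.16 in BE(2)C, against 18.6, 16.2 and 20.6 in SH-SY5Y, and was lower with a log2 fold change of -1.17 ± 0.24 in Kelly and -1.10 ± 0.24 in BE(2)C. SPSB1, an adaptor of a ubiquitin ligase, was called lower in Kelly than in both other lines, at 0, 0 and 0.0742 in Kelly, against 2.55, 3.69 and 2.45 in BE(2)C and 3.59, 3.11 and 3.90 in SH-SY5Y. MTOR, the growth-controlling kinase, had 65.8, 59.4 and 55.8 in Kelly and 40.2, 42.9 and 46.5 in BE(2)C, against 55.6, 52.4 and 63.7 in SH-SY5Y. It was lower in BE(2)C (-0.39 ± 0.10; limma, adjusted p = 0.00862) and in Kelly its difference from SH-SY5Y was 0.08 ± 0.10 (adjusted p = 0.554), or -0.57 on values as deposited. GNB1, a beta subunit of heterotrimeric G proteins, differed little between the lines under the trimmed-mean scaling, at 637 ± 19.3 in Kelly and 632 ± 17.0 in BE(2)C, against 634 ± 11.02 in SH-SY5Y. Under other alternatives GNB1 was called lower in Kelly against SH-SY5Y in 3 of 18, with a log2 fold change of down to -0.70, and lower in BE(2)C against SH-SY5Y in 4 of 18, down to -0.57. AGTRAP, which binds the angiotensin receptor, averaged 12.6 ± 2.05 in Kelly and 10.4 ± 2.66 in BE(2)C, against 8.25 ± 1.91 in SH-SY5Y and was not called.

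Among metabolic enzymes, 6 of 8 were tested, and 4 were called lower and 1 higher in BE(2)C, set against SH-SY5Y, beside 30.7% and 28.6% of all tested genes. ENO1, an enolase of glycolysis, was by far the most abundant gene of the list. It had 3246, 3289 and 3388 scaled TPM in Kelly and 3077, 3101 and 2727 in BE(2)C, against 2686, 2592 and 2485 in SH-SY5Y. Its log2 fold change was 0.35 ± 0.07 in Kelly (limma, adjusted p = 0.00204) and 0.20 ± 0.07 in BE(2)C (adjusted p = 0.0355), but on values as deposited both turned, to -0.36 and -0.38, and with library totals only BE(2)C turned to -0.26. The Kelly call ended with library totals only, and the BE(2)C call in 12 more of 18 alternatives. PGD, the decarboxylating dehydrogenase of the pentose phosphate pathway, had 355, 378 and 369 in Kelly and 243, 252 and 214 in BE(2)C, against 308, 316 and 307 in SH-SY5Y. It was lower in BE(2)C than in SH-SY5Y (-0.39 ± 0.07; limma, adjusted p = 7.76e-04), and higher in Kelly (0.24 ± 0.07; adjusted p = 0.0126), where it turned to -0.46 on values as deposited. The Kelly call of PGD also ended with library totals only (0.11, adjusted p = 0.321), with a total that leaves mitochondrial genes out (0.11, adjusted p = 0.147) and with quantile normalization.

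ACOT7, a thioesterase of the brain that splits long-chain acyl-CoA, had 16.3, 13.7 and 12.5 scaled TPM in Kelly and 14.3, 9.87 and 12.2 in BE(2)C, against 28.9, 29.03 and 29.03 in SH-SY5Y. It was lower in Kelly with a log2 fold change of -0.99 ± 0.15 and in BE(2)C with a log2 fold change of -1.21 ± 0.15. A gene on the other strand covers 20.3% of its exon bases, so its level is uncertain too. NMNAT1, a nuclear enzyme of NAD synthesis, had 3.34, 1.89 and 3.91 in Kelly and 4.35, 7.65 and 3.04 in BE(2)C, against 13.6, 19.7 and 6.18 in SH-SY5Y. Its log2 fold change was -1.71 ± 0.42 in Kelly (limma, adjusted p = 0.00715) and -1.18 ± 0.42 in BE(2)C (adjusted p = 0.0372); the BE(2)C call ended in 8 of 18 alternatives. PLOD1, a lysyl hydroxylase of collagen, averaged 48.0 ± 8.81 in Kelly and 61.2 ± 9.57 in BE(2)C, against 82.0 ± 5.03 in SH-SY5Y, and was called lower in both, in BE(2)C with 5 of 18 alternatives that ended the call. ICMT, which methylates prenylated proteins such as RAS, was not called in any comparison.

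Of 6 genes of mitochondria and peroxisomes, 4 were called higher in Kelly than in SH-SY5Y, where 28.1% of all tested genes were. In BE(2)C 2 were called higher and 2 lower, near the 28.6% and 30.7% of all tested genes. SDHB, the iron-sulphur subunit of succinate dehydrogenase and itself a tumour suppressor of chromaffin tissue, had 149, 165 and 168 scaled TPM in Kelly and 112, 118 and 115 in BE(2)C, against 83.1, 73.1 and 76.6 in SH-SY5Y. The lines did not overlap, and SDHB was higher in Kelly by 1.04 ± 0.07 (limma, adjusted p = 2.85e-06) and in BE(2)C by 0.57 ± 0.07 (adjusted p = 1.30e-04), the second of which ended with library totals only and on values as deposited. AURKAIP1, a small protein of the mitochondrial ribosome, had 585, 569 and 600.2 in Kelly and 683, 655 and 569.6 in BE(2)C, against 299, 317 and 307 in SH-SY5Y (0.92 ± 0.07 in Kelly, ending on values as deposited, and 1.04 ± 0.07 in BE(2)C). MFN2, which joins mitochondria by their outer membranes, and PEX14, a docking protein of peroxisome import, were called higher in Kelly and lower in BE(2)C than in SH-SY5Y. MFN2 averaged 106 ± 4.28 in Kelly and 65.7 ± 2.503 in BE(2)C, against 80.5 ± 3.28 in SH-SY5Y, and its Kelly call ended with library totals only and turned to -0.30 on values as deposited. PEX14 averaged 44.9 ± 4.85 in Kelly and 21.1 ± 4.002 in BE(2)C, against 28.01 ± 1.52 in SH-SY5Y, its Kelly call ended on values as deposited, and its BE(2)C call ended in 7 of 18 alternatives. PARK7, a protein of the oxidative stress response, and DNAJC11, a partner of the mitochondrial inner membrane organising system, were not called in any comparison.

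All 5 genes of the ubiquitin group were called lower in BE(2)C than in SH-SY5Y and higher in Kelly than in BE(2)C, where 30.7% and 27.9% of all tested genes were, and 57.9% of the listed 1p36 genes in each. UBE4B, which lengthens ubiquitin chains, had 115, 112 and 76.2 scaled TPM in Kelly and 33.1, 26.2 and 53.5 in BE(2)C, against 84.5, 76.0 and 72.0 in SH-SY5Y. All BE(2)C libraries lay below all others, with a log2 fold change of -1.08 ± 0.24 against SH-SY5Y (limma, adjusted p = 0.00409), and Kelly was above BE(2)C by 1.44 ± 0.24 (adjusted p = 9.56e-04). FBXO44, a substrate receptor of a ubiquitin ligase, had 15.2, 21.3 and 19.95 in Kelly and 1.88, 2.48 and 3.53 in BE(2)C, against 25.3, 24.0 and 26.1 in SH-SY5Y, with log2 fold changes of -2.87 ± 0.20 for BE(2)C against SH-SY5Y (adjusted p = 2.35e-06) and 2.46 ± 0.20 for Kelly against BE(2)C (adjusted p = 9.12e-06). Its neighbour FBXO2, a receptor for glycoproteins in the brain which shares 7.82% of its exon bases with FBXO44 on the other strand, was low in all lines, at 4.13, 1.71 and 1.63 in Kelly and 0.438, 0.0449 and 0.204 in BE(2)C, against 4.47, 4.14 and 5.64 in SH-SY5Y. Its call in Kelly against SH-SY5Y ended in 10 of the 17 alternatives that tested it. UBR4, a large ligase of the N-degron pathway, averaged 164 ± 8.33 in Kelly and 84.9 ± 26.8 in BE(2)C, against 129 ± 10.9 in SH-SY5Y, and its BE(2)C call ended without SH-SY5Y replicate 2. DDI2, a protease that activates a transcription factor of proteasome genes, averaged 25.4 ± 1.09 in Kelly and 14.7 ± 1.49 in BE(2)C, against 23.3 ± 1.0001. in SH-SY5Y

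Of 10 genes of membrane traffic, ion transport and the cytoskeleton, 6 were called lower and 2 higher in BE(2)C, set against SH-SY5Y, beside 30.7% and 28.6% of all tested genes. In Kelly against BE(2)C 7 were called higher, beside 27.9%. KAZN, a junction-associated protein, had opposite signs in the amplified lines: 31.3, 29.3 and 29.8 scaled TPM in Kelly and 4.88, 4.29 and 5.84 in BE(2)C, against 11.7, 13.9 and 11.3 in SH-SY5Y. It was higher in Kelly by 1.23 ± 0.15 (limma, adjusted p = 9.87e-05), lower in BE(2)C with a log2 fold change of -1.15 ± 0.15 (adjusted p = 1.30e-04) and higher in Kelly than in BE(2)C by 2.38 ± 0.15 (adjusted p = 1.87e-06). A gene on the other strand covers 24.9% of its exon bases. CLSTN1, a cargo adaptor of kinesin in axons, showed the same signs at a smaller size, averaging 186 ± 4.03 in Kelly and 97.0 ± 3.99 in BE(2)C, against 151 ± 2.11 in SH-SY5Y, with a Kelly value that turned to -0.40 on values as deposited. The Kelly call of CLSTN1 also ended under quantile normalization, library totals only and a total without mitochondrial genes. EFHD2, a calcium-binding protein of neurons and lymphocytes, averaged 46.5 ± 7.36 in Kelly and 21.1 ± 2.78 in BE(2)C, against 32.6 ± 0.658. in SH-SY5Y

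ARHGEF10L had 16.2, 13.5 and 13.8 scaled TPM in Kelly and 5.76, 4.50 and 4.29 in BE(2)C, against 11.2, 16.4 and 14.3 in SH-SY5Y. It was lower in BE(2)C than in SH-SY5Y with a log2 fold change of -1.35 ± 0.18 (limma, adjusted p = 1.83e-04), and higher in Kelly than in BE(2)C by 1.41 ± 0.18 (adjusted p = 1.83e-04). CLCN6, a chloride and proton exchanger of late endosomes, averaged 26.5 ± 4.28 in Kelly and 16.1 ± 4.98 in BE(2)C, against 30.1 ± 4.35 in SH-SY5Y, and VPS13D, a lipid transfer protein, averaged 9.93 ± 1.53 in Kelly and 7.28 ± 0.316 in BE(2)C, against 11.8 ± 0.604 in SH-SY5Y; both were called lower in BE(2)C than in SH-SY5Y. VAMP3, a vesicle SNARE, and CAPZB, which caps actin filaments, were higher than SH-SY5Y in both lines, VAMP3 at 97.7 ± 8.97 in Kelly and 89.0 ± 10.2 in BE(2)C, against 66.9 ± 1.36 in SH-SY5Y, and CAPZB at 127 ± 10.3 in Kelly and 109 ± 5.86 in BE(2)C, against 91.1 ± 1.99 in SH-SY5Y. These 4 calls ended on values as deposited, and those in BE(2)C also with library totals only and with a total that leaves mitochondrial genes out. NPHP4, a protein of the base of the cilium, was called in Kelly against BE(2)C (0.69 ± 0.23; not called in 6 of 18 alternatives), and NECAP2, of clathrin-coated vesicles, was not called in any comparison.

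MAD2L2 and DNAJC16, which fall in no group above, were called lower in both amplified lines. MAD2L2, a subunit of a DNA polymerase that copies past damage, had 52.7, 47.1 and 51.0 scaled TPM in Kelly and 24.96, 23.5 and 24.6 in BE(2)C, against 88.1, 86.7 and 80.4 in SH-SY5Y, with no overlap between lines (-0.75 ± 0.08 in Kelly; limma, adjusted p = 4.12e-05; -1.76 ± 0.08 in BE(2)C, adjusted p = 1.55e-07). DNAJC16, a co-chaperone with a J domain, had 7.38, 4.72 and 4.62 in Kelly and 6.61, 3.72 and 4.72 in BE(2)C, against 17.0, 16.5 and 16.02 in SH-SY5Y (-1.44 ± 0.23 in Kelly, adjusted p = 5.49e-04; -1.57 ± 0.23 in BE(2)C, adjusted p = 2.76e-04).

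How firmly a call stands differs by comparison. Of the calls in BE(2)C against SH-SY5Y, 27 of the 33 lower and 3 of the 8 higher held in every alternative that tested the gene, and of those in Kelly against BE(2)C, 25 of the 33 higher and 1 of the 2 lower. In Kelly against SH-SY5Y it was 10 of the 14 lower and 4 of the 18 higher (DVL1, CASZ1, KAZN and SDHB). Among genes with a call that held, FBXO2, CASP9 and SPSB1 were not tested under the filter of 5. The spike-ins bear on the Kelly comparisons: 6 of the 32 genes called in Kelly against SH-SY5Y (CHD5, SPSB1, CTNNBIP1, NMNAT1, CASZ1 and DNAJC16) and 10 of the 35 called in Kelly against BE(2)C moved by more than the largest shift of a spike-in, and the part of a technical difference in the other Kelly calls was not tested. In BE(2)C against SH-SY5Y all 41 called genes moved by more than the largest spike-in shift of that comparison. The spike-ins compared averaged at least 10 TPM as deposited, so their shifts do not gauge the spread of low genes. TNFRSF25 and CASP9, both low in all lines, are among the 41, and SPSB1 is among the 6. Because the spike-ins were centred on their median in each library, an offset in the scaling of the genes does not show in their shifts. ENO1 is among the 41, and it turned to -0.26 with library totals only. Mitochondrial genes took 16.5% to 19.8% of the gene total in Kelly, 24.5% to 35.3% in BE(2)C and 17.2% to 18.0% in SH-SY5Y. With them left out of the total 39 listed genes were called lower in BE(2)C than in SH-SY5Y and 5 higher, and the share of all tested genes called was not counted. The median of all tested genes fell as well, to -0.23, against -0.04 under the trimmed-mean scaling. Under both, 45 of the 57 listed genes lay below the median of all tested genes.

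Neighbours that were not on the list held some larger changes than most of the listed genes, among them MXRA8, GPR153 and EPHA2. MXRA8, a cell adhesion protein, averaged 214 ± 17.0 scaled TPM in Kelly and 10.5 ± 4.96 in BE(2)C, against 7.09 ± 1.18 in SH-SY5Y, a log2 fold change of 4.74 ± 0.30 in Kelly against SH-SY5Y (limma, adjusted p = 1.49e-06) and of 4.33 ± 0.30 against BE(2)C (adjusted p = 3.74e-06). GPR153, an orphan receptor, averaged 9.34 ± 1.74 in Kelly and 1.06 ± 0.140 in BE(2)C, against 41.8 ± 1.82 in SH-SY5Y, and EPHA2, an ephrin receptor, 5.89 ± 1.12 in Kelly and 2.46 ± 0.940 in BE(2)C, against 30.8 ± 2.06 in SH-SY5Y. Both were called lower in each (GPR153 with -2.06 ± 0.16 in Kelly and -4.38 ± 0.16 in BE(2)C, EPHA2 with -2.22 ± 0.24 in Kelly and -3.24 ± 0.24 in BE(2)C). H6PD, the pentose phosphate enzyme of the endoplasmic reticulum, was lower in Kelly, at 1.91 ± 0.366, against 24.0 ± 1.53 in SH-SY5Y (-3.11 ± 0.18). MFAP2, a protein of elastic microfibrils, was lower in BE(2)C, at 12.6 ± 7.66, against 159.7 ± 5.64 in SH-SY5Y (-3.75 ± 0.39). PRKCZ, an atypical protein kinase C, was listed at 0 in all Kelly libraries and averaged 10.8 ± 1.85 in SH-SY5Y. Called higher in both lines was VWA1, a matrix protein, at 37.4 ± 3.05 in Kelly and 37.2 ± 2.70 in BE(2)C, against 12.7 ± 1.18 in SH-SY5Y. MRPL20, a protein of the mitochondrial ribosome at the outer end of the band, was higher in BE(2)C, at 604 ± 10.9, against 316 ± 15.4 in SH-SY5Y (0.93 ± 0.08; adjusted p = 6.63e-06).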

How the data were processed

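Poly(A) RNA of 9 libraries from 3 neuroblastoma lines was analysed from the deposited gene table. The authors deposited log10 values, which read from the values themselves are log10(TPM + 1). HISAT 0.1.6, Salmon 0.3.2 and GRCh38 are listed per the submitters' processing notes, and nothing used here says how transcripts became gene values. TPM keeps no depth, so the depth per library is unknown, and every column of sample values was used.

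The values were back-transformed, rescaled to the total of gene entries (spike-ins and reporters left out) and divided by a trimmed-mean factor per library, after a trim of 30% of ratios and 5% of levels on either side. A gene entered the test if 3 libraries or more had it at 1 scaled TPM or above. The test was run with limma 3.58.1 (R 4.3.3) in 1 fit of all 9 libraries with line as the only term and a pseudocount of 1; the procedure was tested on simulated data. Summaries used Python 3.11.15 with pandas 2.3.3. Positions came from GENCODE release 29, which matched 18700 of 19706 symbols, and another 554 by another symbol. Full statistics are given for the candidate suppressors, ENO1, PGD, MTOR and TARDBP, and, per comparison, for up to 8 called genes with the largest change and a mean of at least 10 scaled TPM in the higher line; neighbours are named by up to 4 per direction. Values of other genes complete the account of the list. Alternatives were other scalings, a pseudocount of 0.1, no filter, a filter of 5, a fit of 2 lines, a replicate block and each library left out. The genes, lists and tests were chosen with earlier results of these data known.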

Additional observations from a re-analysis of the deposited data

How the results depend on the processing

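In Kelly against SH-SY5Y, values as deposited gave 4 genes higher and 37 lower, and 9 neighbours higher. The share of all tested genes called was not counted in the alternatives. The median of the listed genes less that of all tested genes was -0.037 as deposited and 0.00363 with quantile normalization. Of the genes with full statistics, on values as deposited SKI (-0.38), ENO1 (-0.36), PGD (-0.46), TARDBP (-0.64), MTOR (-0.57), PRDM2 (-0.46) and ARHGEF10L (-0.43) turned in Kelly against SH-SY5Y. PGD also turned under quantile normalization (-0.0077), without a call. Of the other listed genes, GNB1, DNAJC11, PARK7, CLSTN1, MFN2, DDI2 and SPEN were called with the opposite sign in at least 1 alternative. VAMP3 (down to -0.16), PEX14 (-0.03), EFHD2 (-0.18) and CAPZB (-0.22) changed sign there without a call. In BE(2)C against SH-SY5Y, library totals only gave 3 genes and 5 neighbours higher, values as deposited 3 and 4, and mitochondrial genes out of the total 5 genes higher. The median of the listed genes less that of all tested genes was there -0.48 as deposited and -0.54 with quantile normalization. It was -0.60 with a pseudocount of 0.1 and -0.61 with a filter of 5. ENO1 turned to -0.26 with library totals only, -0.38 as deposited, -0.016 with mitochondrial genes out and -0.10 with quantile normalization, and DVL1 to -0.083 as deposited. In Kelly against BE(2)C, 1 gene was lower in place of 2 with library totals only, mitochondrial genes out, quantile normalization, a filter of 5, only the 2 lines and the replicate block, and 4 as deposited. The median less that of all tested genes was 0.35 as deposited and 0.63 with a filter of 5. The cause was not tested. Leaving out 1 library gave 7 to 9 higher and 28 to 33 lower in BE(2)C against SH-SY5Y, 17 to 20 and 10 to 15 in Kelly against SH-SY5Y, and 28 to 32 and 1 to 4 in Kelly against BE(2)C. The median less that of all tested genes then ran from -0.59 to -0.46 in BE(2)C against SH-SY5Y. In Kelly against BE(2)C it ran from 0.50 to 0.66. With the replicate number as a block, 19 genes were higher and 15 lower in Kelly against SH-SY5Y, 7 and 30 in BE(2)C against SH-SY5Y, and 33 and 1 in Kelly against BE(2)C. Deviations from the line means correlated at -0.05 to 0.03 over the 9 pairs of same-numbered libraries of different lines. Over the 18 other pairs they correlated at -0.04 to 0.04. What the numbers stand for is not in the labels. The unknown depth limits genes of low values.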

Other observations

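In BE(2)C against SH-SY5Y the inner end of the short arm went the other way from 1p36. These blocks were drawn after the values along the chromosome had been seen, and no test was made of them. From 95 to 120 Mb, 45 of 112 tested genes were called higher and 22 lower in BE(2)C against SH-SY5Y, with a median log2 fold change of 0.29. Of all tested genes 28.6% and 30.7% were. In Kelly against SH-SY5Y 64 were called higher and 17 lower, with a median of 0.68, beside 28.1% and 27.2% of all tested genes. Kelly against BE(2)C gave 44 higher and 13 lower (median 0.21), beside 27.9% and 24.6% of all tested genes. There the 1p36 genes were mostly higher too. From 20 to 95 Mb, 237 of 445 genes were called lower in BE(2)C against SH-SY5Y and 42 higher (median -0.54), while in Kelly against SH-SY5Y 108 were lower and 125 higher (median 0.014).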
